A study of Mus musculus with 24 samples.

Results

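The genes described here carry uridine into the cell and across its inner membranes and start its conversion to nucleotides: 4 nucleoside transporters (Slc29a1, Slc29a2, Slc29a3 and Slc28a2), the uridine-cytidine kinases Uck1 and Uck2 with their relative Uckl1, the UMP/CMP kinase Cmpk1, the uridine phosphorylase Upp1, and Uprt, named for uracil phosphoribosyltransferase. They were picked by name, through the transcript accession of each 3′UTR interval, and not by a cut on their own values. The choice was made with earlier results of these data known. Of the 10 genes listed, 9 were found among the 20868 genes of the tables, and Uprt was not analysed here. The libraries come from a SLAM-seq experiment on mouse preleukemic cells, in which newly made RNA is labelled with 4-thiouridine (4SU), a uridine analogue, and labelled positions are read as T-to-C conversions after alkylation. All cells descended from c-Kit-enriched fetal liver cells that received Meis1 and Hoxa9 by retrovirus (labelled Hox9/Meis1), and were cultured with Stem Cell Factor, IL-6 and IL-3. Per the study's methods both genotypes carry floxed alleles of Tut4 and Tut7, the terminal uridylyl transferases, and the conditional double knockout (cDKO) adds Vav-iCre, which drives deletion in cells of the blood lineages; the controls lack Cre. Labelling lasted 12 h at 2.9 µM 4SU, and a chase in 4SU-free medium then ran for 0, 60, 180 or 540 min. The 8 groups of genotype and chase time held 3 replicates each, which gave 24 libraries. The labels do not say what a replicate is; per the study's methods the SLAM-seq triplicates are biological, and its mouse replicates came from separate animals or embryos.

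Nucleosides cross the plasma membrane through equilibrative transporters of the SLC29 family, which run along the gradient, and through concentrative transporters of the SLC28 family, which are driven by sodium. Inside the cell, uridine-cytidine kinase makes the monophosphate, which is the committing step of salvage, and further kinases bring it to the triphosphate that RNA polymerases use. Uridine phosphorylase instead splits uridine into uracil and ribose 1-phosphate. Because 4SU is a uridine analogue, it enters RNA by this same route, which is why the transcript levels of the route are set beside the labelling of the libraries. Only transcripts were measured, neither transport nor enzyme activity.

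Each library held between 4380238 and 7041311 reads in 3′UTRs. Levels are given as CPM, the counts of a gene scaled to the 3′UTR reads of its library, and are compared within a gene only, since the intervals differ in length. Tut4 was lower in cDKO at all 4 chase times, by a log2 change of -1.76 ± 0.22 (SE) at 0 min, and so was Tut7, by -1.08 ± 0.17 (edgeR quasi-likelihood test, adjusted p = 0.00118 and 0.00388, n = 3 against 3). These are 3′UTR reads, and whether the floxed exons include them is not given in the sources used here. The label "preleukemic cells" was checked against marker genes. Summed levels of 10 myeloid progenitor markers were 9517 to 10724 CPM in control and 3360 to 4808 CPM in cDKO, with the granule proteases Elane and Prtn3 among the 5 called lower at all 4 chase times; of the same list Cd33 was called higher at 0, 60 and 180 min, and Cd34 had log2 changes of 0.47 to 0.85 that did not pass the test. Of 10 erythroid markers, Hbb-bt made nearly all of 1307 to 2091 CPM in cDKO against 0.372 to 3.07 CPM in control, while Alas2, Epor and Car1 had no read in either genotype. Summed neutrophil markers (8 genes) were at 33.7 to 79.7 CPM in control and 0.700 to 3.20 CPM in cDKO, and mast cell and basophil markers (8 genes, Fcer1a, Cma1 and Tpsab1 at 0) at 14.0 to 27.3 and 83.2 to 180.2 CPM. Of the latter, Cpa3 and Hdc were higher at all 4 times (mean 62.2 and 45.6 CPM in cDKO, 0 and 0.739 in control). Both passed the filter on low counts through their cDKO libraries, so their calls only describe the levels. Mcpt8 (13.3 CPM in control, 10.3 in cDKO) and Ms4a2 (6.78 and 6.05) were not called. Megakaryocyte markers (5 genes) overlapped at 2.40 to 9.68 and 7.32 to 23.7 CPM. Itga2b alone was called, higher at all 4 times (mean 0.542 CPM in control, 13.7 in cDKO), and it too passed the filter through cDKO. Pf4 and Gp9 had lower means in cDKO. Monocyte and macrophage markers (7 genes) overlapped between genotypes at 3622 to 4171 and 3382 to 4691 CPM. So did 8 cycling cell genes at 1843 to 2108 and 1931 to 2214 CPM, and the 6 lymphoid markers had at most 0.529 CPM in all. Within the monocyte list Csf1r was lower and Adgre1 higher in cDKO at all 4 times. Csf1r (mean 33.3 CPM in control, 1.14 in cDKO) passed the filter through control. Of the transforming genes, Hoxa9 made nearly all of 1946 to 2801 CPM in control and 3378 to 6545 CPM in cDKO. Meis1 had no 3′UTR read in control. Retroviral copies may lack the native 3′UTR, so these reads need not measure the introduced copies of either gene. In such bulk libraries, fewer cells of a type and less RNA per cell cannot be told apart, and the part of these marker differences in the results below was not tested.

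Across the 9 genes, 1 was lower in cDKO at all 4 chase times: Slc29a3, whose protein sits in membranes of intracellular compartments such as the lysosome. The other calls came at a single time each, and no transporter of the plasma membrane was called at more than 1 time. At 0 min, 8 of the 9 passed the filter on low counts and 1 of them was called lower, beside 6.64% of all 10186 genes tested, and 0 were called higher beside 6.72%. At 60 min 3 of 9 were called lower and 0 higher, beside 10.2% and 9.97% of 10141 genes. At 180 min the figures were 1 lower and 0 higher of 9, beside 9.78% and 9.1% of 10142 genes, and at 540 min 2 lower and 1 higher, beside 10.4% and 8.89% of 10275 genes. The median log2 change of the genes tested lay between -0.11 and 0.03 at the 4 times, against -0.00126 to 0.00737 for all genes tested.

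**Figure D1:**
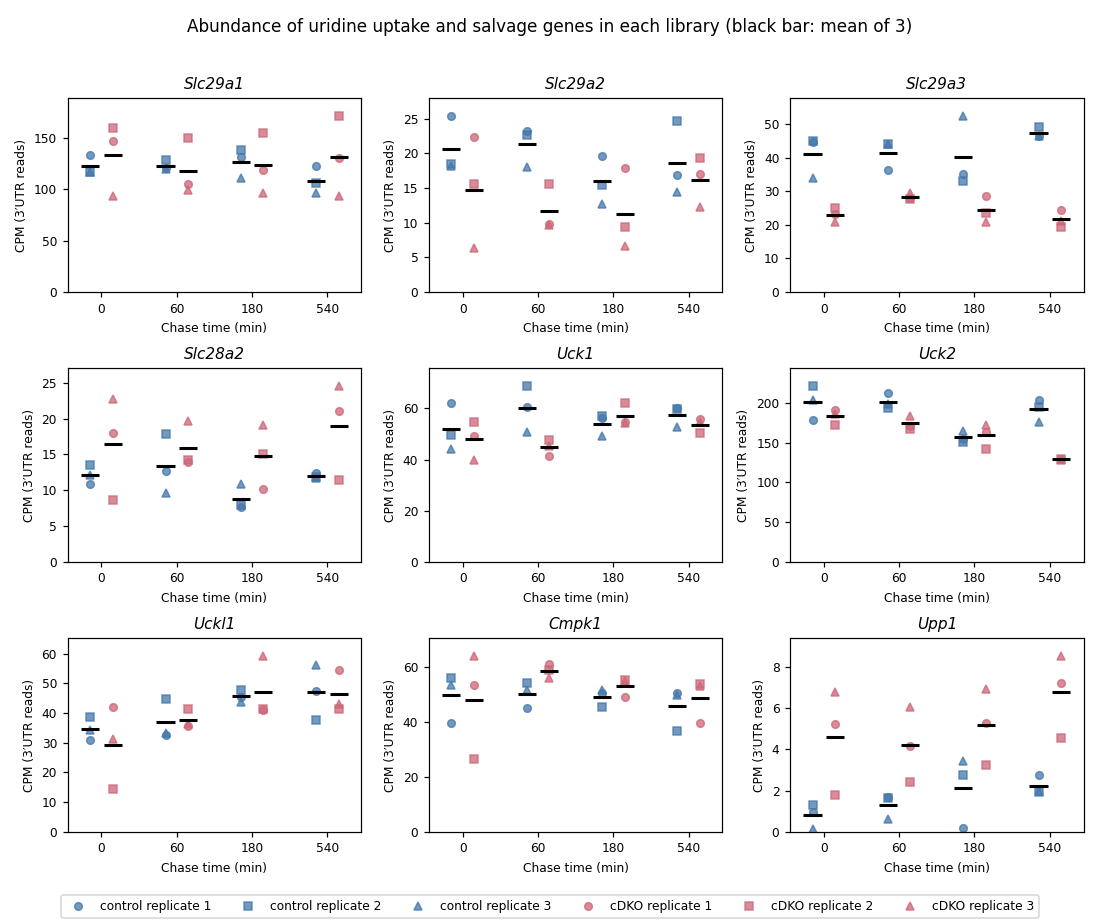
Level of each of the 9 genes in every library, in CPM on axes that start at 0, against chase time in min. Blue points are control and red points cDKO, the shape gives the replicate number and black bars the mean of 3; the red Slc29a3 points lie below the blue ones at each time.

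Among the transporters, Slc29a1 is the main equilibrative nucleoside transporter of the plasma membrane (mm10 chr17:45585200-45585670, minus strand, 3′UTR). At 0 min it stood at 134.0, 117.1 and 117.3 CPM in control and at 147.0, 159.7 and 94.0 CPM in cDKO, so the genotypes overlapped and cDKO spread more widely. Over all chase times the 12 control libraries ran from 96.9 to 138.1 CPM with a median of 120.7, and the 12 cDKO libraries from 93.3 to 171.7 CPM with a median of 124.8. The log2 change (cDKO over control) was 0.14 at 0 min, with a 95% interval of -0.29 to 0.57, and -0.08, -0.06 and 0.27 at 60, 180 and 540 min, none of which passed the test (lowest adjusted p = 0.37, edgeR, n = 3 against 3). At 540 min it passed without cDKO replicate 3 (0.48, edgeR adjusted p = 0.032).

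Slc29a3 encodes an equilibrative transporter of intracellular membranes (mm10 chr10:60712072-60715835, minus strand, 3′UTR) and was the transporter with the clearest difference. At 0 min it was at 44.7, 44.9 and 33.8 CPM in control and at 23.3, 25.1 and 20.8 CPM in cDKO. At 540 min the control libraries had 46.5, 49.0 and 46.6 CPM and the cDKO libraries 24.6, 19.3 and 21.0 CPM. Every cDKO library lay below every control library at each chase time, which held for 7.92% of the 9896 genes tested at all times. The log2 change was -0.82 ± 0.18 (SE) at 0 min, -0.57 ± 0.14 at 60 min, -0.75 ± 0.21 at 180 min and -1.14 ± 0.14 at 540 min. Each passed the edgeR test (adjusted p = 0.0154, 0.0149, 0.0293 and 0.000567, n = 3 against 3), a pattern shared by 4.39% of the 9896 genes. The call at 0 min was lost without control replicate 1 (adjusted p = 0.0793), control replicate 2 (0.0843) or cDKO replicate 1 (0.0536), that at 60 min without control replicate 2 (0.0642), control replicate 3 (0.0637) or cDKO replicate 1 (0.0505), and that at 180 min without control replicate 1 (0.0521) or 3 (0.116), all by edgeR. In each of these the log2 change stayed between -0.85 and -0.52.

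Slc29a2, an equilibrative transporter of the plasma membrane that also takes nucleobases, was measured with fewer reads, 29 to 165 per library. It was lower in cDKO at 60 min, at 9.82, 15.6 and 9.67 CPM against 23.2, 22.6 and 18.0 CPM, and the log2 difference of -0.89 ± 0.24 (SE, n = 3 against 3) passed the edgeR test (adjusted p = 0.0261). That call was lost without control replicate 1 (adjusted p = 0.101) or 2 (0.0974), without cDKO replicate 1 (0.0887) and when all 24 libraries entered a single fit (0.0919, all edgeR). At 0, 180 and 540 min the genotypes overlapped, with log2 changes of -0.47, -0.52 and -0.21, and the interval at 0 min ran from -1.34 to 0.40.

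Slc28a2, a concentrative transporter that takes purine nucleosides and uridine, gave 38 to 138 reads per library, of which 4.10% were multimapping over the 24 libraries. Control libraries ranged from 7.62 to 17.9 CPM and cDKO libraries from 8.65 to 24.6 CPM. The log2 change was positive at each time, 0.44, 0.23, 0.73 and 0.66 from 0 to 540 min, but none passed the test (lowest edgeR adjusted p = 0.11, n = 3 against 3). The 95% intervals, which are not adjusted for the number of genes, were 0.09 to 1.37 at 180 min and 0.02 to 1.30 at 540 min. Without cDKO replicate 2 it passed at 0 min (0.74, edgeR adjusted p = 0.0447) and at 540 min (0.94, adjusted p = 0.0142). The other genes listed with the transporters (Slc28a1, Slc28a2b, Slc28a3 and Slc29a4) did not pass the filter on low counts at any time.

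Among the kinases, Uck2, the uridine-cytidine kinase with the higher activity in dividing cells, had the most reads of the 9 genes (mm10 chr1:167226083-167226381, minus strand, 3′UTR). No difference was called at the start of the chase, at 178.5, 221.6 and 204.0 CPM in control and 191.5, 172.2 and 186.5 CPM in cDKO, and the log2 change was -0.12 with an interval of -0.34 to 0.11. At 540 min the control libraries held 204.3, 195.2 and 176.8 CPM and the cDKO libraries 130.2, 130.1 and 128.8 CPM. Every cDKO library was below every control library, a separation whose share over all genes was not counted. That difference of -0.57 ± 0.08 (SE) passed the test (edgeR adjusted p = 0.00145, n = 3 against 3), and did so in each of 14 alternatives, with adjusted p up to 0.0143. At 60 min the change was -0.23 ± 0.07 (edgeR adjusted p = 0.0563), called in 3 of 14 alternatives, and at 180 min it was 0.00 with an interval of -0.21 to 0.22. With counts summed over the 4 chase times it was -0.24 (edgeR adjusted p = 0.0109), a setting that called 3433 of 11204 genes tested.

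Uck1, the other uridine-cytidine kinase, was lower in cDKO only at 60 min, at 41.2, 47.6 and 45.5 CPM against 60.6, 68.8 and 50.7 CPM. The difference of -0.44 ± 0.14 (log2, SE, n = 3 against 3) had an edgeR adjusted p of 0.0457, and the call was lost with DESeq2 (adjusted p = 0.0631), with the replicate number as a block (0.0539, edgeR), and without control replicate 1 (0.119) or 2 (0.166) or cDKO replicate 1 (0.140). At the other times its changes were -0.09, 0.06 and -0.10. Its interval overlaps that of Pomt1 on the opposite strand, and 2.87% of its reads were multimapping, so its values are less certain. Uckl1, a protein related to both kinases, ranged from 30.8 to 56.2 CPM in control and from 14.5 to 59.2 CPM in cDKO, with changes of -0.24, 0.01, 0.03 and -0.03. Cmpk1, which turns UMP and CMP into their diphosphates, lay at 37.0 to 56.2 CPM in control and 26.6 to 64.2 CPM in cDKO, with changes of -0.05, 0.20, 0.09 and 0.09. Neither passed the test at any time, and the intervals at 180 min were -0.32 to 0.39 for Uckl1 and -0.17 to 0.35 for Cmpk1.

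Upp1, the uridine phosphorylase, was the rarest of the 9, with an interval of 70 bases and 110 reads in the 12 control libraries against 320 in the 12 cDKO libraries. At 540 min it had 15, 13 and 14 reads (2.77, 1.94 and 1.99 CPM) in control and 40, 26 and 48 reads (7.22, 4.55 and 8.55 CPM) in cDKO. It was called higher there, with a log2 change of 1.61 ± 0.40 (SE, n = 3 against 3) and an edgeR adjusted p of 0.0206. That call was lost in 7 of 14 alternatives, among them those without any one control replicate (edgeR adjusted p = 0.0518, 0.0701 and 0.0792) and without cDKO replicate 1 (0.0728) or 3 (0.0653). At 60 and 180 min the changes of 1.65 ± 0.56 and 1.24 ± 0.66 did not pass the test (edgeR adjusted p = 0.0637 and 0.232). At 60 min control had 9, 9 and 3 reads and cDKO 19, 12 and 32, so Upp1 passed the filter on low counts through cDKO. Its direction at 60 min is therefore not independent of that filter. At 0 min it fell under the filter on low counts, with 5, 7 and 1 reads in control and 23, 10 and 31 in cDKO. With no filter it was 2.54 ± 0.77 higher there (edgeR adjusted p = 0.0494). The libraries of the genotypes overlapped at 180 min and not at the other times. That rests on few reads, and the share of all genes without overlap at a single time was not counted.

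**Figure D2:**
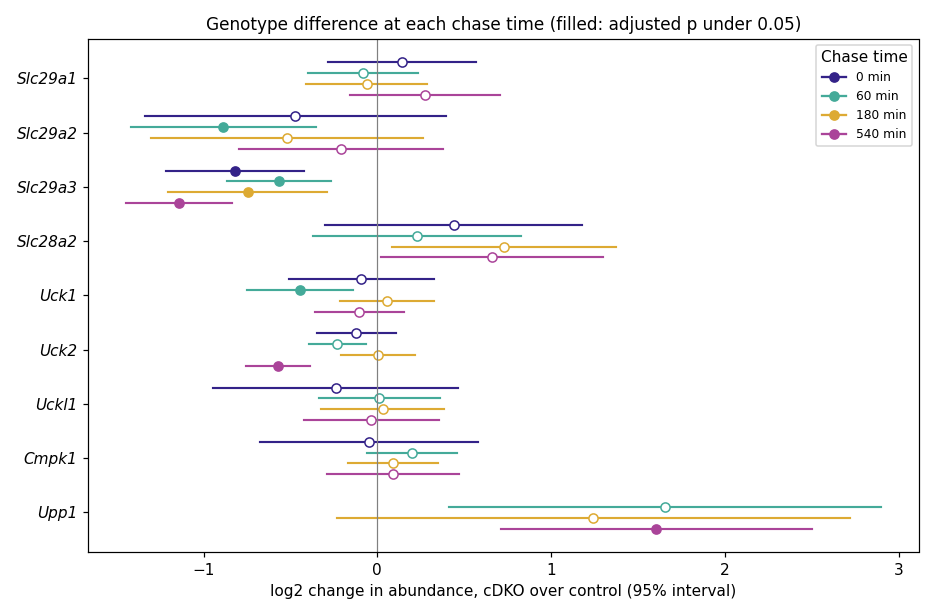
Log2 change in abundance (cDKO over control, n = 3 against 3) of the 9 genes at each chase time, with 95% intervals from the edgeR fit; filled points passed the test. Slc29a3 is filled at all 4 times, Slc29a2 and Uck1 at 60 min, Uck2 and Upp1 at 540 min, and Upp1 has no point at 0 min because it was not tested there.

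To see whether levels moved during the chase, 540 min was compared with 0 min within each genotype; as the chase time is also the batch named in the labels, time and batch cannot be told apart. In control, 0 of the 9 genes were called by edgeR, beside 16.2% of 10226 genes; 3 had an unadjusted p under 0.05 and DESeq2 called 0. Uckl1 came closest, at 0.41 ± 0.15 (SE; edgeR adjusted p = 0.0696), and was called without control replicate 2 of 540 min (0.55, adjusted p = 0.00844). In cDKO, edgeR called 0 of 9, beside 0.117% of 10235 genes, with 1 at an unadjusted p under 0.05 and 1 called by DESeq2. That gene was Uck2, at -0.53 ± 0.09 (SE; edgeR adjusted p = 0.106). It fell in each of the 3 replicate numbers, and with the replicate number as a block, which fits the cDKO libraries because same-numbered ones deviate together, it was called (edgeR adjusted p = 0.0329). The change in cDKO minus that in control was -0.43 ± 0.13 for Uck2 (edgeR adjusted p = 0.852), and 0 of the 9 genes were called for this difference, beside 0% of 10651 genes; 1 of the 9 and 557 of all had an unadjusted p under 0.05, and DESeq2 called 0 of the 9 and 6 of all. The comparisons share their 0 and 540 min libraries with those between genotypes.

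Of 62 genes listed for the supply and use of nucleotides around this route, 60 were in the tables and 51 were tested, and 3 were called in the same direction at all 4 chase times, beside 8.31% of the 9896 genes tested at all times. At 0 min 3 were higher and 1 lower (6.72% and 6.64% of all genes tested), at 60 min 3 and 6 (9.97% and 10.2%), at 180 min 4 and 3 (9.1% and 9.78%), and at 540 min 6 and 3 (8.89% and 10.4%). Nt5c3, a pyrimidine 5′-nucleotidase that takes the phosphate off UMP and CMP and so runs against the kinases, was higher in cDKO at every time. It stood at 68.3, 57.3 and 67.7 CPM in control and 116.2, 125.3 and 166.1 CPM in cDKO at 0 min, and at 62.6, 54.4 and 51.6 against 118.1, 123.8 and 153.0 CPM at 540 min. Its log2 changes were 1.09 ± 0.15, 1.01 ± 0.12, 1.00 ± 0.11 and 1.22 ± 0.13 (SE), each past the test (edgeR adjusted p = 0.00236, 0.000362, 0.000182 and 0.000319, n = 3 against 3) and past it in every alternative run. A call higher at all 4 times was seen in 3.92% of the 9896 genes.

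Nt5c3 was the only one of 11 nucleotidase and pyrimidine breakdown genes called at every time; 6 of them were tested, Nt5c was called higher at 540 min, and their median log2 change was 0.27, 0.48, 0.43 and 0.63 from 0 to 540 min. The route that makes uridine nucleotides from simple precursors (Cad, Dhodh, Umps, Ctps and Ctps2) had 1 call, Cad, higher at 540 min (0.45, edgeR adjusted p = 0.0226), with medians of -0.09, 0.09, -0.11 and 0.09. Of 6 nucleoside diphosphate kinases, Nme6 and Nme7 were lower at 60 min and none at other times. Of 12 genes of deoxypyrimidine salvage and synthesis, Tk1 was lower at 60 min and Dut higher at 180 and 540 min. Ugdh, which oxidises UDP-glucose, was lower at 0, 60 and 540 min, and the other 3 tested genes of UDP-sugar synthesis were not called. In purine salvage (6 genes), adenosine kinase Adk was higher at all 4 times by 0.41 to 0.63, while Aprt and Pnp were lower at 2 times each. Of 12 core subunits of RNA polymerase II, Polr2c was higher at all 4 times by 0.28 to 0.52, and Polr2i was lower at 60, 180 and 540 min. Of the 29 calls among these genes, 11 passed in every alternative run, namely those of Nt5c3, Nt5c and Polr2i, Adk at 180 min and Polr2c at 60 and 540 min. The calls of Cad, Nme6, Nme7, Tk1, Dut, Ugdh and Pnp, of Aprt at 60 min, of Adk at 0 and 60 min and of Polr2c at 180 min were each lost without any 1 of the 3 control replicates, that of Aprt at 180 min and that of Adk at 540 min without control replicate 1 or 2, and that of Polr2c at 0 min without control replicate 2 or 3. Over the alternatives that ended them, edgeR adjusted p ran up to 0.127 for Ugdh, 0.163 for Adk and 0.130 for Polr2c.

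**Figure D3:**
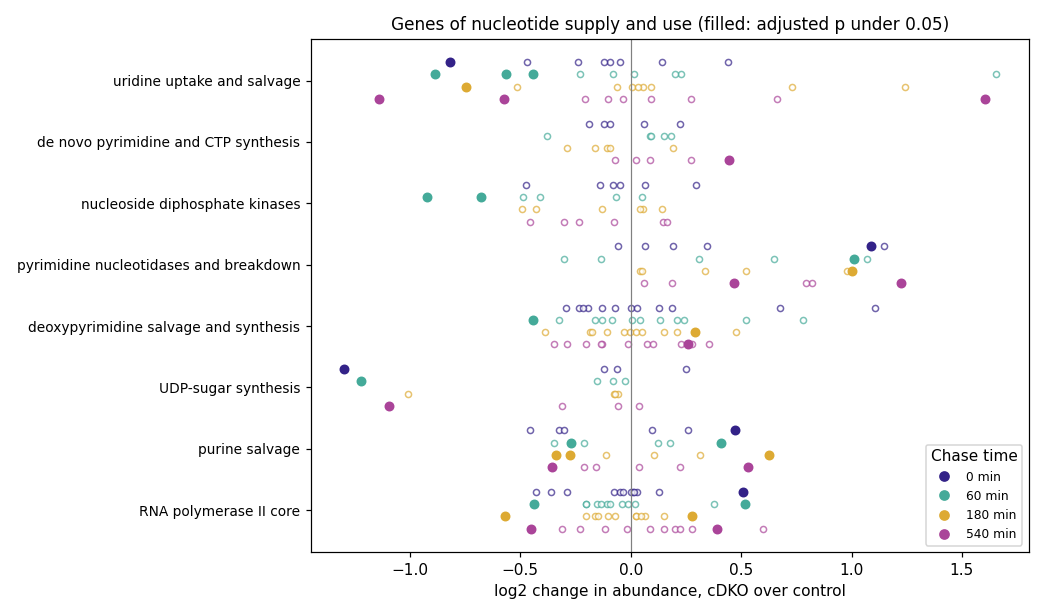
Log2 change in abundance (cDKO over control) of single genes, 1 point a gene, in the uridine uptake and salvage genes and 7 related lists, at the 4 chase times; filled points passed the edgeR test. The filled points near 1 in the nucleotidase row are Nt5c3 and those below -1 in the UDP-sugar row are Ugdh.

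The 4SU label itself differed between the genotypes. Over all genes, conversions at 0 min were 1.62, 1.67 and 1.62% of covered T positions in control and 0.821, 0.845 and 0.542% in cDKO, which is 2.23-fold lower (two-sided exact permutation p = 0.1, the smallest that 3 against 3 allows; adjusted over 4 times, 0.1). The ratio was 2.15-fold at 60 and 180 min and 1.68-fold at 540 min. The 9 genes' own levels can be set beside these rates by replicate number. Mean Slc29a1 over the 4 chase times was 127.6, 122.4 and 111.4 CPM in control replicates 1 to 3 and 125.4, 159.2 and 95.9 CPM in cDKO replicates 1 to 3. In cDKO these means lay within or above the control range in replicates 1 and 2, and below it in replicate 3. Library-wide rates at 0 min were 0.821, 0.845 and 0.542% in cDKO replicates 1 to 3, against 1.62 to 1.67% in control. Within cDKO, replicate 3 had the lowest Slc29a1 and replicate 2 the highest at every chase time, the same order as the conversion rate. Same-numbered cDKO libraries deviate together, so the chase times are not separate observations of that order. Within control, the orders of Slc29a1 and conversion rate matched at 60 and 180 min and differed at 0 and 540 min.

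The order of the conversion rate within cDKO was not shared by all of the genes. Mean Slc29a2 was 16.8, 14.9 and 8.72 CPM in cDKO replicates 1 to 3, lowest in replicate 3 at each time, and 21.3, 20.3 and 15.8 CPM in control. Slc28a2 was highest in cDKO replicate 3 at each time, with means of 15.8, 12.3 and 21.6 CPM, as was Upp1 at 5.48, 2.99 and 7.09 CPM. Uck2 means were 164.2, 152.9 and 168.0 CPM and Uck1 means 50.2, 53.8 and 48.6 CPM. Slc29a3, the gene lower at all times, had means of 26.1, 23.9 and 23.1 CPM. Nt5c3 was at 126.9, 128.8 and 163.6 CPM in cDKO and 70.7, 61.9 and 65.3 CPM in control. With 3 replicate numbers a genotype, no relation between a transcript level and the conversion rate was tested, and neither was the part of any of these genes in the lower labelling.

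**Figure D4:**
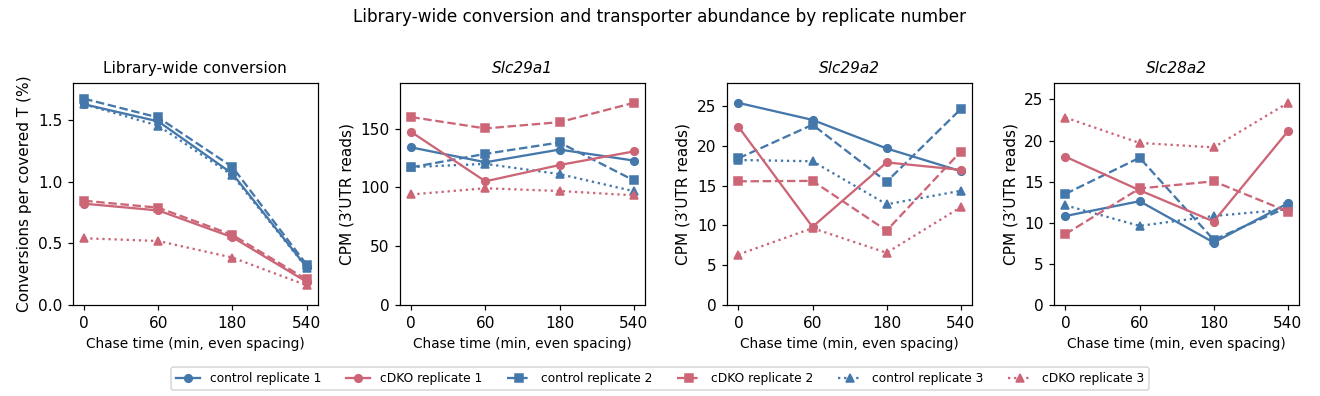
Library-wide conversion rate (% of covered T positions) and levels of 3 transporters (CPM) against chase time, evenly spaced; lines join libraries of one replicate number, blue for control and red for cDKO. The dotted red line (cDKO replicate 3) is lowest for conversion, Slc29a1 and Slc29a2 and highest for Slc28a2.

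The transcripts of these genes carried less label in cDKO, as did most transcripts. In 8 of the 9 genes coverage allowed a test, and all 8 had a lower conversion rate at 0 min, beside 84.6% of 8809 genes called lower. Slc29a1 had 1.69, 1.67 and 1.50% in control and 0.734, 1.03 and 0.493% in cDKO, and Uck2 had 2.06, 1.92 and 2.13% against 0.895, 0.848 and 0.721%. The log2 changes of the 8 ran from -1.54 ± 0.52 for Slc28a2 to -0.94 ± 0.30 for Cmpk1 (SE; edgeR adjusted p from 1.79e-05 to 0.00778, n = 3 against 3). The Slc28a2 call was lost without control replicate 2 (edgeR adjusted p = 0.0790) and the Uckl1 call without control replicate 2 (0.0508) or 3 (0.0559). When the library-wide rate entered the offset, so that each gene was read against its own library, 0 of the 8 were called (28 of 8809 genes) and the values lay from -0.40 for Slc28a2 to 0.24 for Cmpk1, with Slc29a1, Slc29a3, Uckl1 and Cmpk1 above 0. Upp1 had 8 covered T positions in its thinnest library and was left out.

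Half-lives were fitted to the loss of conversions for these 8 genes. In control Cmpk1 had the longest at 461 min, followed by Slc29a1 at 268, Uck2 at 222, Slc29a2 at 198, Uckl1 at 195, Slc28a2 at 171, Slc29a3 at 142 and Uck1 at 85.3 min. Single replicate numbers spread widely, from 373 to 595 min for Cmpk1, 250 to 281 for Slc29a1 and 67.1 to 127.4 for Uck1. Neighbours between 171 and 222 min do not differ beyond that spread. Replicate fits join libraries that share a number, and in control these did not deviate together over the chase (correlation of deviations -0.0224 to 0.0948). The control spread, and exact permutation tests on replicate half-lives, may therefore not measure variation between replicates. Cmpk1 stayed longest in each of the 8 alternatives, but the values and the order of the others depended on the fit. Summing all intervals, or changing the normalisation of the replicate fits, left these control values unchanged and could not alter the order. Slc29a1 was at 137 min with a log-linear fit, below Slc29a2 at 262 and Uck2 at 196 min, and at 519 min without the 540 min libraries, where Cmpk1 was at 761 min. The median over 3712 genes kept by the study's bound on the SD at 0 min was 224 min for control and 251 min for cDKO, with a median log2 ratio of 0.19. Of the 8 genes, 5 met that bound, and Slc29a1, Slc29a2 and Slc28a2 did not.

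The replicate half-lives of Uck2 were 179, 271 and 220 min in control replicate numbers and 341, 389 and 427 min in cDKO. The fit to all 12 libraries gave 222 and 378 min, a log2 ratio of 0.77 that stayed between 0.70 and 0.91 in the 8 alternatives. For this gene the two-sided exact permutation p was 0.1, the smallest this design allows, and 0.667 when adjusted over the 8 genes. Its replicate values did not overlap between genotypes, but the share of all genes without overlap was not counted. Control libraries of one number did not deviate together over the chase, which also limits this comparison. A longer half-life in cDKO was seen in 68.6% of the 3712 kept genes. Uck1 went from 85.3 to 155.4 min and Slc29a3 from 142 to 102 min, with overlapping replicates (two-sided exact permutation p = 0.2 and 0.4). The log2 ratio of Uck1 stayed between 0.34 and 1.44 in the alternatives, whereas that of Slc29a3, -0.49, ran from -0.71 to 1.05 and turned positive with the log-linear fit (94.6 and 195.5 min). Slc29a1 went from 268 to 287 min, Uckl1 from 195 to 193 min and Cmpk1 from 461 to 404 min, also overlapping, and each had log2 ratios of both signs over the alternatives. For Slc29a2 and Slc28a2 the fits gave 472 and 343 min in cDKO, but cDKO replicate 3 rested on 3 and 7 conversions at 0 min and its own fits ran to 10000 (the upper bound) and 4676 min. When the loss of conversions per hour was compared between genotypes by an interaction term, 0 of the 8 genes were called by edgeR, beside 0.13% of 9207 genes, with 2 at an unadjusted p under 0.05 and 1 called by DESeq2. That gene was Uck2, whose conversions fell more slowly in cDKO by 0.13 ± 0.04 log2 units per hour (adjusted p = 0.119 by edgeR, 0.0264 by DESeq2). The median over all 9207 genes was 0.07 per hour, and DESeq2 called 277 of them, all with slower loss in cDKO. Slc29a3 had 0.28 ± 0.11 per hour (edgeR adjusted p = 0.209), a sign opposite to that of its exponential half-lives, with 0 to 4 conversions per library at 540 min.

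**Figure D5:**
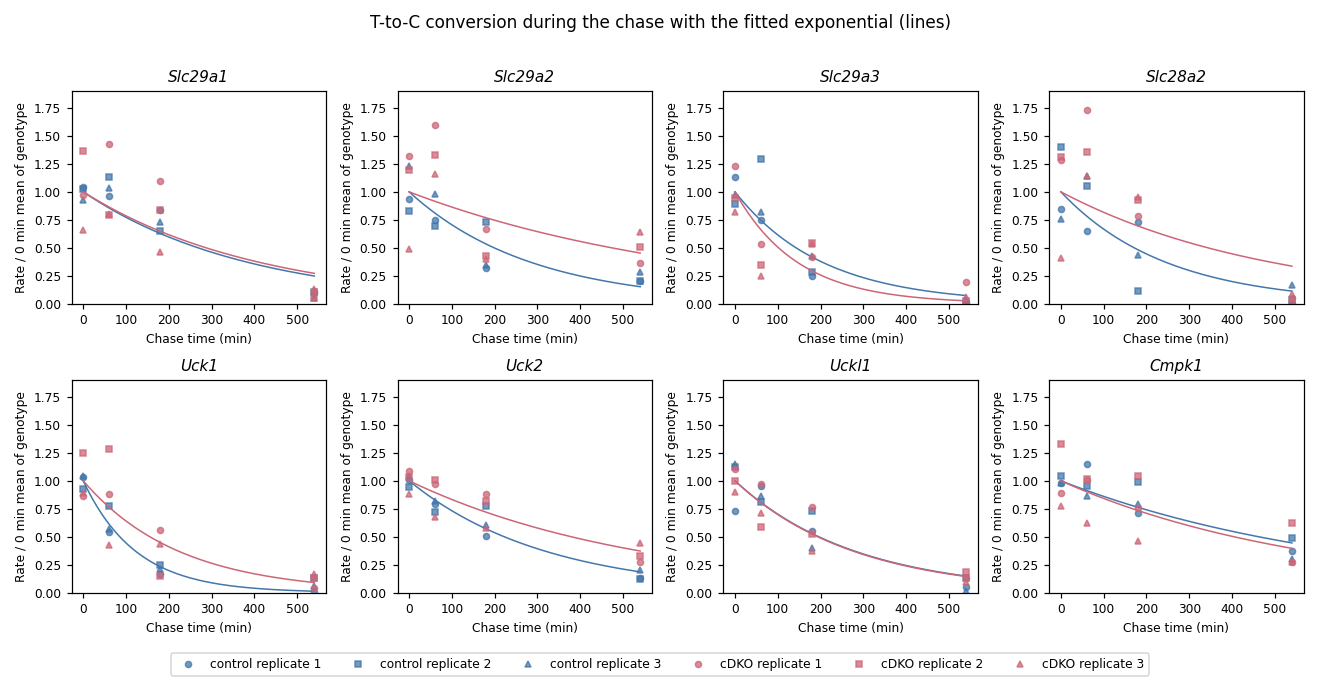
Conversion rate of 8 genes divided by the 0 min mean of the genotype, against chase time in min, with 1 point a library and the fitted single exponential as a line (blue control, red cDKO). The lines of Slc29a1, Uckl1 and Cmpk1 run close together. Those of Uck2 (half-lives of 222 and 378 min), Uck1 (85.3 and 155), Slc29a2 (198 and 472) and Slc28a2 (171 and 343) part. The lines of Slc29a3 (142 and 102) part the other way.

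By pattern over the 24 libraries, the genes most like Slc29a1 in log2 CPM, among 8321 genes, were F7, Bsn and Ybx1, with Pearson r of 0.84, 0.82 and 0.78. For F7 and Bsn this came from the cDKO libraries, where r was 0.92 for both, against 0.09 and -0.17 within control. Among the 3 most like Uck2 were Ptbp3 and Jtb, with r of 0.78 and 0.77, and of 0.66 to 0.83 within either genotype. Libraries of one genotype or culture are not independent, and these values are descriptions.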

How the data were processed

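Samples were grouped by genotype and chase time from the labels. Libraries of 3′ ends (QuantSeq FWD) were made by the authors, who ran SlamDunk 0.4.3 over 3′UTR intervals of mm10; mapping and strand settings are not given in the sources used here. The deposited tables hold whole-number counts of reads, covered T positions and conversions per interval, a fraction deposited beside them gives the conversion rate, and the deposited CPM are scaled to filtered reads. The deposited counts were used, and rates and CPM of 3′UTR reads were recomputed from them.

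Of 39419 lines per table, 39091 matched a gene symbol by accession in a RefSeq table of GRCm38.p6. Among overlapping intervals of a gene the longest was kept (29022 intervals), and counts were summed per gene. Reads in 3′UTRs were 44.2 to 51.0% of filtered reads. There are no molecular identifiers, so precision from depth covers counting error only.

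Abundance was tested with edgeR 4.0.16 (quasi-likelihood, TMM, filterByExpr, R 4.3.3) on the 6 libraries of a chase time or of a genotype's 0 and 540 min, and a gene was called at a Benjamini-Hochberg adjusted p under 0.05 over all genes tested. Log2 changes are unshrunken coefficients with 95% intervals. Conversion counts were tested in edgeR with T coverage (log) as the offset (coverage of at least 100 per library, 50 conversions in all). Half-lives are single exponentials from 1 to 0 fitted by least squares within 1 to 10000 min; replicate fits used the 4 libraries of a number. The fits were tested on simulated data. The study's other bound at 0 min, on the normalised mean, removes nothing here. Alternatives were DESeq2 1.42.0, no filter, other scalings, other interval rules, other fits, a replicate block and leaving out replicates.

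Same-numbered libraries were checked for pairing by the correlation of their deviations from the group means. In cDKO it was 0.249 to 0.673 between 0 min and each later time, so the numbers pair; in control it was -0.0224 to 0.0948, and across genotypes -0.0551 to 0.0880.

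The genes, lists and tests were chosen with earlier results of these data known. Named genes are the 10 chosen genes, Tut4 and Tut7, from each pathway list at most 3 genes called at all 4 times, and the 3 genes most correlated with Slc29a1 and Uck2 (mean CPM of at least 10), of which 1 is not reported here; pathway and marker genes called at fewer times were named after their values were seen. No sequence is printed.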

Additional observations from a re-analysis of the deposited data

How the results depend on the processing

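Over 2456 abundance and conversion values of the uridine genes, the targeted genes, the pathway genes called at any time and named marker genes under other settings (Cpa3, with no read in control, left out), 132 lost a call, 41 gained one, 4 called values changed sign and 86 uncalled values changed sign without a call. The 4 were conversion rates at 0 min with the library-wide rate in the offset, at 0.065 for Slc29a1, 0.049 for Slc29a3, 0.23 for Uckl1 and 0.24 for Cmpk1; by construction this offset removes a shift shared by the library, and it took the calls from 7456 to 28 genes and from 8 to 0 of the uridine genes. For other changes the cause was not tested.

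At 0 min, genes called rose from 1360 to 2292 with all 24 libraries in one fit and to 3433 with counts summed over the chase, and the uridine genes called from 1 to 2 with DESeq2, with no filter and with the single fit, and to 3 with summed counts. In control over the chase, 1 uridine gene in place of 0 was called with no filter and with filtered reads as library size. In cDKO over the chase, genes called were 12, against 119 with DESeq2, 128 with the replicate block and 4 with filtered reads as library size; the uridine genes called went from 0 to 1 with DESeq2 and with the replicate block. For the difference between genotypes in that change, 0 genes became 6 with DESeq2 and 7 with the replicate block set within each genotype, an alternative chosen after seeing the data. For the loss of conversions per hour, 12 genes became 277 with DESeq2, 23 with the library-wide rate in the offset, 24 with the replicate block, 4 with a background of 0.0005 subtracted and 1 without the 540 min libraries, and the uridine genes called went from 0 to 1 with DESeq2. Across genotypes the numbers are not paired, and there the replicate block ended the calls of Uck1 at 60 min (adjusted p = 0.0539), Upp1 at 540 min (0.0513), Adk at 0 and 60 min (0.0616 and 0.0659), Nme7 and Cd33 at 60 min (0.0637 and 0.0570), Polr2c at 180 min (0.0635) and Dut at 540 min (0.0525, all edgeR).

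Leaving out 1 replicate at a time, genes called ranged from 633 (without control replicate 2) to 2223 (without cDKO replicate 2) at 0 min, 1296 to 2331 at 60 min, 1155 to 2161 at 180 min and 1182 to 2070 at 540 min. The uridine genes called then ranged from 0 to 3, 0 to 4, 0 to 1 and 2 to 4. Over the chase the range was 1007 to 1722 genes in control (0 to 1 uridine gene), 0 to 5 in cDKO (0), 0 to 1 for the difference between genotypes (0) and 3 to 30 for the loss of conversions (0). For conversion rates at 0 min, 6554 to 7358 genes and 6 to 8 of the uridine genes were called. The median log2 half-life ratio of the 8 genes was 0.43, and 0.17 to 0.61 without a replicate number, beside 0.19 over all 8771 genes covered. It includes Slc29a2 and Slc28a2, at 1.25 and 1.00, whose cDKO replicate 3 fits ran to 10000 and 4676 min. The 5 genes that met the study's bound on the SD at 0 min had -0.49 (Slc29a3), 0.87 (Uck1), 0.77 (Uck2), -0.02 (Uckl1) and -0.19 (Cmpk1). Depth limits Upp1, Slc28a2 and Slc29a2, with 1, 38 and 29 reads in their thinnest libraries. Among the pathway genes, leaving out cDKO replicate 1 also ended the calls of Cad, Nme7, Tk1, Dut, Aprt, Ugdh at 0 and 540 min, Adk at 60 min, and Pnp and Polr2c at 180 min; leaving out cDKO replicate 2 those of Cad, Nme7, Dut, Pnp, and Polr2c at 180 min, and leaving out cDKO replicate 3 those of Adk at 0 and 60 min. Cd33 lost its calls without any 1 control replicate (edgeR adjusted p 0.0570 to 0.137 over all alternatives that ended them).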
